A study of Mus musculus with 8 samples.

Results

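The transcripts described here encode the rod phototransduction cascade: the transducin subunits Gnat1, Gnb1 and Gngt1, the phosphodiesterase subunits Pde6a, Pde6b and Pde6g, and the shut-off proteins Sag, Grk1 and Rcvrn. These 9 genes were chosen by symbol from the 26824 genes of the deposited table, and all 9 passed the filter on low counts. Retinas came from 3 wild-type mice (libraries WT 1 to WT 3) and 5 mice labelled as knockouts of Kv8.2, the product of Kcnv2 (KO 2 to KO 6). All mice were 1 month old and untreated, and 2 retinas were pooled for each library. The labels name no strain, sex or allele design. The series text states that 2 KO samples were left out of the authors' own test without naming them, so all 5 were used here.

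In a rod, light-activated visual pigment exchanges GTP for GDP on the alpha subunit of transducin. That subunit then leaves the beta and gamma subunits and lifts the inhibitory gamma subunits off the catalytic core of the phosphodiesterase, which lowers cyclic GMP and closes the cation channels of the outer segment. The signal ends when rhodopsin kinase phosphorylates the pigment, arrestin caps it, and transducin hydrolyses its GTP. Recoverin holds the kinase back while calcium is high. Kv8.2 is a silent subunit that forms no channel alone and joins Kv2.1 in the inner segments of photoreceptors.

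Among the 9 transcripts, Sag was higher and Gngt1 was lower in the libraries labelled KO, and no other member passed the test over all 8 libraries. Sag rose by 0.87 on the log2 scale (standard error, SE, 0.16, edgeR adjusted p = 0.0169) and Gngt1 fell by 0.90 (SE 0.18, edgeR adjusted p = 0.0222). Both calls were lost when any 1 WT library was left out, at log2 fold changes of 0.77 to 0.98 for Sag and -1.02 to -0.74 for Gngt1. With offsets for the GC content of transcripts, the Gngt1 fall was 0.46 and no longer called (edgeR adjusted p = 0.0519), Sag was still called (0.76, edgeR adjusted p = 0.0116), and Pde6g was called lower (-0.37, edgeR adjusted p = 0.0283). Calls here and below rest on edgeR's quasi-likelihood test, with the p-value adjusted over all 20167 genes tested and a threshold of 0.05. By the same rule 4.74% of all genes were called higher and 2.84% lower, which is 956 and 573 genes; scaled by library size alone it was 566 and 787. Of the members, 6 of 9 had a log2 fold change above 0, with a median of 0.19, beside a median of 0.00 over all genes tested. The other 7 members had log2 fold changes from -0.27 to 0.37.

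Sag (ENSMUSG00000056055) lies on the plus strand at chr1:87803680-87845158 of GRCm38. Its promoter is shown because Sag was the member that rose, and that of Pde6b (ENSMUSG00000029491, chr5:108388391-108432397, plus strand) is shown beside it because both hold a half-site letter string of the rod factor NRL. Both sequences are the 250 bases before the RefSeq start, from RefSeq's GRCm38.p6 tables, at chr1:87803430-87803679 and chr5:108388123-108388372, both on the plus strand. Capitals mark the CRX core TAATCC or its reverse complement GGATTA, and the NRL half-site TGCTGA or its reverse complement TCAGCA.
Sag: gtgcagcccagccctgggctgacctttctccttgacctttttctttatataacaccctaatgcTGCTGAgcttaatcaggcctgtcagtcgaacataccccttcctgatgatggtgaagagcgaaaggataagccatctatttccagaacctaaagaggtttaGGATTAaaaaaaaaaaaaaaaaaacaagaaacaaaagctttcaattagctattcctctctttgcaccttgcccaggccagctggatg
Pde6b: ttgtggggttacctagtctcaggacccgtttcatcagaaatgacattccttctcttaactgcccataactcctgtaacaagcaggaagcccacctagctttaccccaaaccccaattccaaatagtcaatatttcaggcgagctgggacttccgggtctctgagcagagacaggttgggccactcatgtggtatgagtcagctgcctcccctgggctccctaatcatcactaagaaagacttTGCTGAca
In the Sag window the NRL half-site began 187 bases and the CRX core 87 bases before the start, and in the Pde6b window the NRL half-site began 8 bases before it. RefSeq promoter windows matched 5 of the 9 members. The Gnb1 and Grk1 windows held neither string. The Gngt1 window held 1 CRX core, but 216 of its 250 bases lie inside an exon of the GENCODE model, so its RefSeq start is not the start of that model. Of all 32851 promoter windows of 250 bases, 6.3% held the CRX core and 16.1% the NRL half-site on either strand, with overlap between the strings allowed. Such matches are letters in a window and were not measured as binding.

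Libraries differed in ways that bear on these values. Depth was 17759146 to 25188870 counts. Kcnv2 transcript was present in every library, at 519, 551 and 526 CPM (counts per mega-count of the library, TMM-scaled) across WT 1 to WT 3 and at 585, 447, 398, 409 and 409 CPM in KO 2 to KO 6 (edgeR adjusted p = 0.275), so the transcript does not check the knockout label. KO 4 to KO 6 stood apart from the other 5 libraries: mitochondrial transcripts took 3.03% to 3.70% of their counts, 5.23% to 6.52% in KO 2 and KO 3, and 7.09% to 7.92% in WT. Counts of 14 lens genes took 4.60% in KO 3 and at most 0.155% in the others. Tests were therefore repeated for KO 2 and KO 3 alone and for KO 4 to KO 6 alone against the same WT libraries, which both tests share. In KO 2 and KO 3 against WT, 0.624% of genes were called higher and 0.267% lower. In KO 4 to KO 6 against WT, 22.3% were called higher and 20.5% lower, and genotype and library set cannot be told apart there. In pooled tissue, fewer rods and less RNA per rod also cannot be told apart.

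Gnat1, the alpha subunit that carries the signal to the phosphodiesterase, was the most abundant member per transcript length in WT. Its level was 8071, 8808 and 8494 CPM across WT 1 to WT 3, and 13246, 7541, 10771, 11681 and 10939 CPM in KO 2 to KO 6. KO 3 was below every WT library and the other 4 KO libraries were above them, so the groups overlapped. The log2 fold change was 0.36 (SE 0.15, edgeR adjusted p = 0.164). In KO 4 to KO 6 alone it was 0.41 (SE 0.07, edgeR adjusted p = 0.000435), and in KO 2 and KO 3 alone 0.30 (SE 0.24, edgeR adjusted p = 0.537). With offsets that level out the relation of counts to transcript GC content, described under Gngt1, it was 0.22 over 8 libraries (SE 0.14, edgeR adjusted p = 0.361) and 0.20 in KO 4 to KO 6 (edgeR adjusted p = 0.0291). Without KO 3, the library with the lens counts, Gnat1 was called higher (0.47, edgeR adjusted p = 0.0119).

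Gnb1 encodes the beta subunit of rod transducin and is expressed in many cell types, so its level is not specific to rods. It stood at 4419, 4788 and 4819 CPM across WT 1 to WT 3, and at 7676, 3875, 4564, 4840 and 4368 CPM in KO 2 to KO 6. KO 2 was the highest of the 8 libraries and KO 3 the lowest. The log2 fold change was 0.12 (SE 0.20, edgeR adjusted p = 0.746), with the opposite sign in KO 4 to KO 6 (-0.02, SE 0.07, edgeR adjusted p = 0.873) and without KO 2 (-0.08, edgeR adjusted p = 0.524).

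Gngt1 (ENSMUSG00000029663, chr6:3993792-3997436, plus strand, GRCm38) encodes the gamma subunit that anchors transducin's beta subunit to the membrane. It stood at 1540, 1936 and 1343 CPM across WT 1 to WT 3, and at 992, 1096, 806, 757 and 644 CPM in KO 2 to KO 6. Every KO library was below every WT library. Across all genes tested, 10.1% had every KO library below every WT library and 10.8% the reverse. Of the 9 members, 2 (Gngt1 and Rcvrn) were wholly below WT and 2 (Sag and Pde6a) wholly above. The fall was 0.62 in KO 2 and KO 3 (SE 0.19, edgeR adjusted p = 0.158) and 1.12 in KO 4 to KO 6 (SE 0.12, edgeR adjusted p = 1.62e-05).

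The GC content of the Gngt1 transcript is 35.8%, the lowest of the members, which otherwise span 48.1% to 55.8%. Across the 18028 tested genes with a matched transcript, fold change over the 8 libraries rose with GC content (Spearman 0.46). These genes share the same libraries and are no independent replicates. The Spearman value was 0.54 in the test of KO 4 to KO 6, beside 0.16 in that of KO 2 and KO 3. With offsets for GC content, the Gngt1 fall was 0.46 (SE 0.12, edgeR adjusted p = 0.0519), which was no longer called. With those offsets it was 0.48 in KO 4 to KO 6 (edgeR adjusted p = 0.00739), still called.

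**Figure D1:**
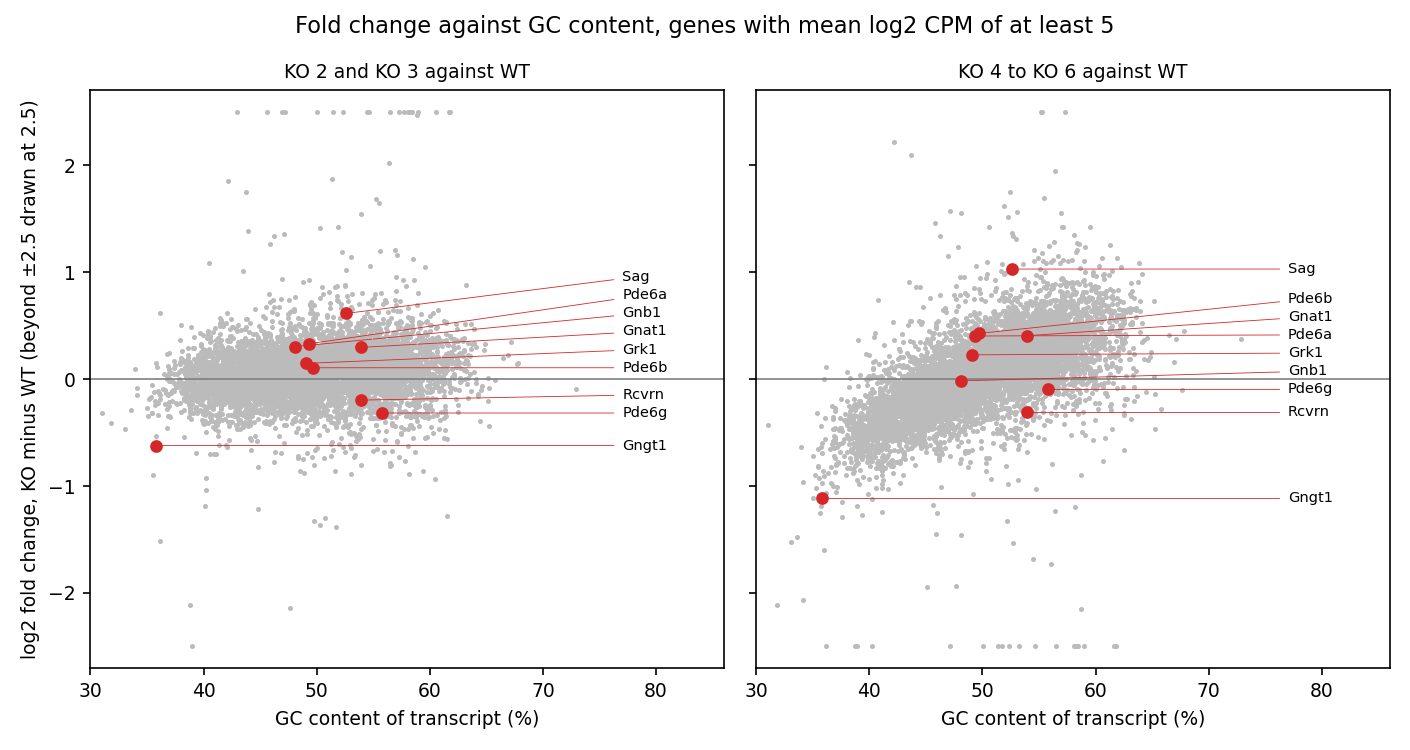
The log2 fold change (KO minus WT, edgeR) of each gene averaging 5 or more in log2 CPM is plotted against the GC content of its transcript in percent: left panel KO 2 and KO 3, right panel KO 4 to KO 6. Grey points are genes, with those beyond 2.5 in either direction drawn at 2.5, and red points are the 9 members: Gngt1, at 35.8% GC, sits at the low-GC end, and the cloud slopes upward more in the right panel (Spearman over all matched genes 0.54 against 0.16).

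Ratios between transcripts of the same library are free of library scaling, though not of a dependence on GC content or transcript length. Fold change rose with transcript length as well (Spearman 0.13 over 8 libraries, 0.28 in KO 2 and KO 3, 0.06 in KO 4 to KO 6). Pde6g, Rcvrn and Gngt1 have the shortest transcripts of the members, at 900, 1040 and 1183 bases. Pde6a and Grk1 have the longest, at 4588 and 7431 bases. The part of length in the ratios was not tested. The ratio of Gngt1 to Gnat1 counts was 0.191, 0.220 and 0.158 in WT 1 to WT 3 and 0.0749, 0.145, 0.0748, 0.0648 and 0.0589 in KO 2 to KO 6. Every KO library was below every WT library, and KO 3 was the nearest to them. The mean log2 ratio was lower by 1.25 in KO, a fold of 0.421 (two-sided exact permutation test over the 56 divisions of the libraries, p = 0.0357, the smallest it can give; adjusted over 13 ratios, p = 0.058). The Gnat1 transcript has 54.0% GC against 35.8% for Gngt1, and with GC offsets the fitted log2 fold changes of the pair lay closer together, at -0.46 for Gngt1 and 0.22 for Gnat1, against -0.90 and 0.36 without. None of the 13 ratios passed 0.05 after adjustment. With 0.0357 as the smallest p, none could pass unless most of them reached it, so that outcome decides little. The groups did not overlap in 8 of the 13 ratios, and the share among other gene pairs was not computed. Gngt1 over Gnb1 overlapped between the groups because KO 3 reached 0.283 and WT 3 was at 0.279 (difference in mean log2 ratio -0.99, exact permutation p = 0.0714, adjusted p = 0.103). Here too the fitted log2 fold changes lay closer together with GC offsets, at -0.46 for Gngt1 and 0.15 for Gnb1, against -0.90 and 0.12 without. Gnat1 over Gnb1 overlapped too (0.26, exact permutation p = 0.179, adjusted p = 0.211).

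The phosphodiesterase of rods joins the catalytic subunits Pde6a and Pde6b with the inhibitory subunit Pde6g. Pde6a, on chromosome 18, stood at 2108, 2301 and 2135 CPM across WT 1 to WT 3, and at 3123, 2362, 2962, 2947 and 2684 CPM in KO 2 to KO 6. All KO libraries were above all WT libraries, KO 3 by the least. Its log2 fold change of 0.37 (SE 0.11, edgeR adjusted p = 0.0689) did not pass the test over 8 libraries, and passed it in KO 4 to KO 6 (0.40, SE 0.07, edgeR adjusted p = 0.000399). It was also called without KO 3 (0.43, edgeR adjusted p = 0.00966) and without KO 2 (0.33, edgeR adjusted p = 0.0495).

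Pde6b stood at 1678, 1781 and 1610 CPM across WT 1 to WT 3, and at 1949, 1689, 2234, 2334 and 2199 CPM in KO 2 to KO 6. KO 3 lay within the WT range and the others above it. The log2 fold change was 0.30 (SE 0.12, edgeR adjusted p = 0.144) over 8 libraries, 0.43 in KO 4 to KO 6 (SE 0.06, edgeR adjusted p = 0.00017) and 0.11 in KO 2 and KO 3 (SE 0.16, edgeR adjusted p = 0.747). Without KO 3 it was called higher (0.38, edgeR adjusted p = 0.022).

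Pde6g, the inhibitor, stood at 1391, 1547 and 1312 CPM across WT 1 to WT 3, and at 1185, 1090, 1236, 1388 and 1325 CPM in KO 2 to KO 6. The values of KO 2 to KO 4 were under the WT range, while KO 5 and KO 6 lay among them. The log2 fold change was -0.19 (SE 0.11, edgeR adjusted p = 0.306), and with GC offsets it was -0.37 (SE 0.08, edgeR adjusted p = 0.0283), where it was called lower. In KO 4 to KO 6 it was -0.10 (SE 0.07, edgeR adjusted p = 0.32), and -0.37 with GC offsets (edgeR adjusted p = 0.00137). With offsets for transcript length it was -0.07 over 8 libraries (edgeR adjusted p = 0.701).

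Set against the catalytic subunits in the same library, the inhibitor was lower in all 5 KO libraries. Pde6g over Pde6b was 0.829, 0.869 and 0.815 in WT 1 to WT 3 and 0.608, 0.645, 0.554, 0.594 and 0.603 in KO 2 to KO 6. The groups did not overlap, and the KO libraries lay close together. The mean log2 ratio was lower by 0.48 in KO, a fold of 0.717. Against Pde6a the difference was -0.55, a fold of 0.682. Both reached the smallest p the exact permutation test can give, 0.0357, with an adjusted p of 0.058. Both ratios share Pde6g, so they are not independent of each other. The ratio of the catalytic subunits to each other, Pde6a over Pde6b, differed by 0.07 on the log2 scale (exact permutation p = 0.536, adjusted p = 0.536), with KO 2 and KO 3 above all WT libraries at 1.60 and 1.40.

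**Figure D2:**
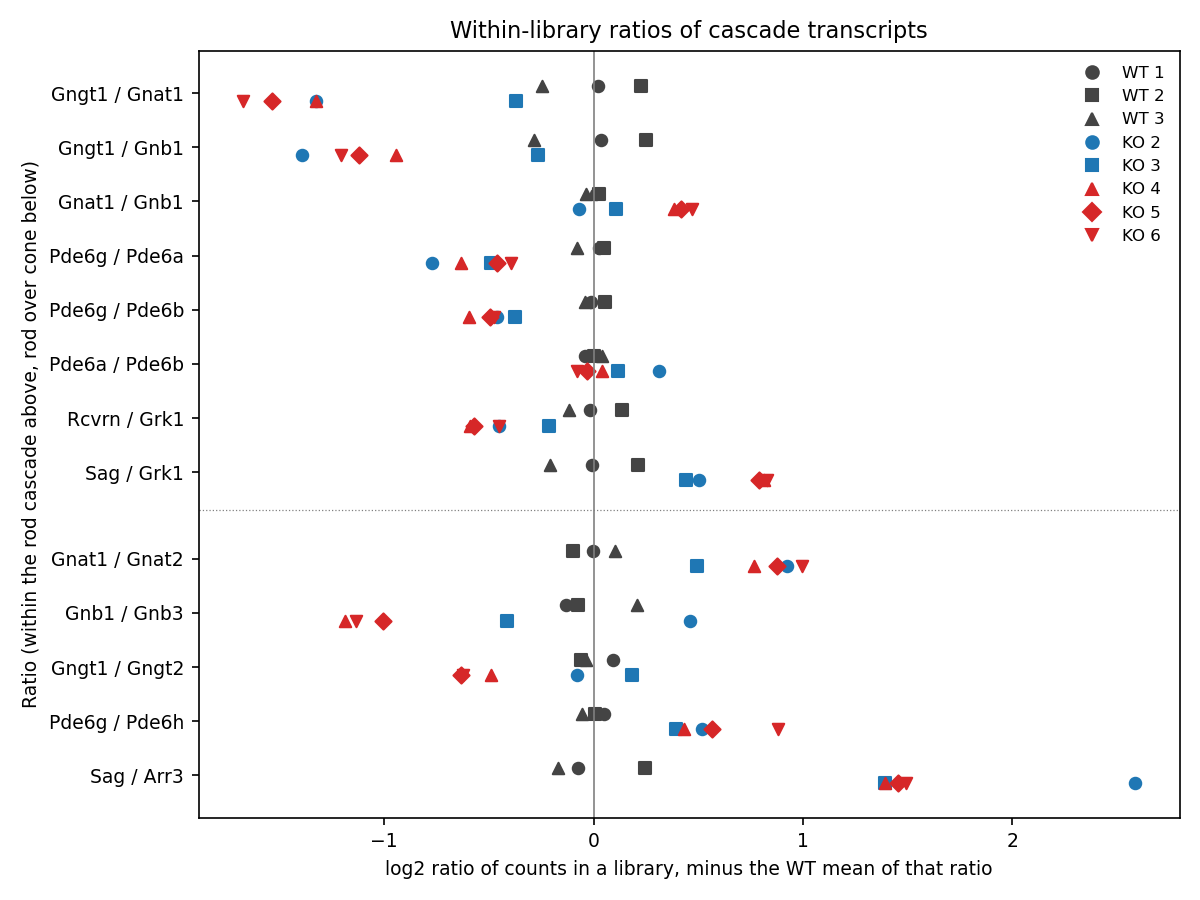
Each row is a ratio of 2 transcripts counted in the same library, and the axis gives its log2 value minus the mean of that ratio in the 3 WT libraries. Grey marks are WT, blue KO 2 and KO 3, red KO 4 to KO 6: for Pde6g over Pde6b the 5 KO marks lie together below WT, while for Gngt1 over Gnat1 KO 3 lies apart from the other KO libraries and for Sag over Arr3 KO 2 lies far above them.

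Of the shut-off proteins, Sag encodes rod arrestin, which binds the phosphorylated pigment and blocks transducin. It stood at 2427, 2774 and 2100 CPM across WT 1 to WT 3, and at 4259, 3194, 4743, 5079 and 4977 CPM in KO 2 to KO 6. Every KO library was above every WT library, and KO 3 was the lowest of the KO libraries. Over the 3 WT libraries Sag averaged 2434 ± 337.0 CPM (SD, n = 3), and over the 5 KO libraries 4450 ± 770.4 CPM (SD, n = 5). The rise was 0.61 in KO 2 and KO 3 (SE 0.20, edgeR adjusted p = 0.165), 1.03 in KO 4 to KO 6 (SE 0.09, edgeR adjusted p = 4.62e-06), and 0.76 over 8 libraries with GC offsets (SE 0.14, edgeR adjusted p = 0.0116). The Sag call over 8 libraries was lost without WT 1 (0.0973), WT 2 (0.0605), WT 3 (0.0911) or KO 4 (0.052), in adjusted p of the edgeR test, while the log2 fold change was 0.87, 0.98, 0.77 and 0.85 in those fits. For Gngt1 the same held without WT 1 (0.0965), WT 2 (0.12), WT 3 (0.0558), KO 4 (0.0622) or KO 5 (0.0601), with log2 fold changes of -0.93, -0.74, -1.02, -0.88 and -0.86.

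Grk1, rhodopsin kinase, stood at 2238, 2197 and 2225 CPM across WT 1 to WT 3, and at 2759, 2158, 2475, 2694 and 2571 CPM in KO 2 to KO 6. KO 3 lay below the WT libraries and the others above. Its log2 fold change was 0.19 (SE 0.10, edgeR adjusted p = 0.266) and 0.23 in KO 4 to KO 6 (SE 0.06, edgeR adjusted p = 0.0089). With length offsets it was 0.11 over 8 libraries (edgeR adjusted p = 0.456). Rcvrn, the calcium sensor that restrains the kinase, stood at 1002, 1095 and 931 CPM across WT 1 to WT 3, and at 916, 846, 747, 822 and 854 CPM in KO 2 to KO 6. Every KO library was below every WT library, by a narrow gap between WT 3 and KO 2. Its log2 fold change was -0.27 (SE 0.11, edgeR adjusted p = 0.129) and -0.31 in KO 4 to KO 6 (SE 0.07, edgeR adjusted p = 0.00441). With GC offsets these were -0.40 (edgeR adjusted p = 0.0515) and -0.52 (edgeR adjusted p = 0.000131), and with length offsets the 8 libraries gave -0.17 (edgeR adjusted p = 0.333).

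Within a library, Sag over Grk1 was 1.08, 1.26 and 0.944 in WT 1 to WT 3 and 1.54, 1.48, 1.92, 1.89 and 1.94 in KO 2 to KO 6. Rcvrn over Grk1 was 0.448, 0.499 and 0.418 in WT and 0.332, 0.392, 0.302, 0.305 and 0.332 in KO 2 to KO 6. In neither ratio did the groups overlap: arrestin was higher relative to the kinase by 0.68 on the log2 scale and recoverin lower by 0.45 (exact permutation p = 0.0357 and adjusted p = 0.058 for both).

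**Figure D3:**
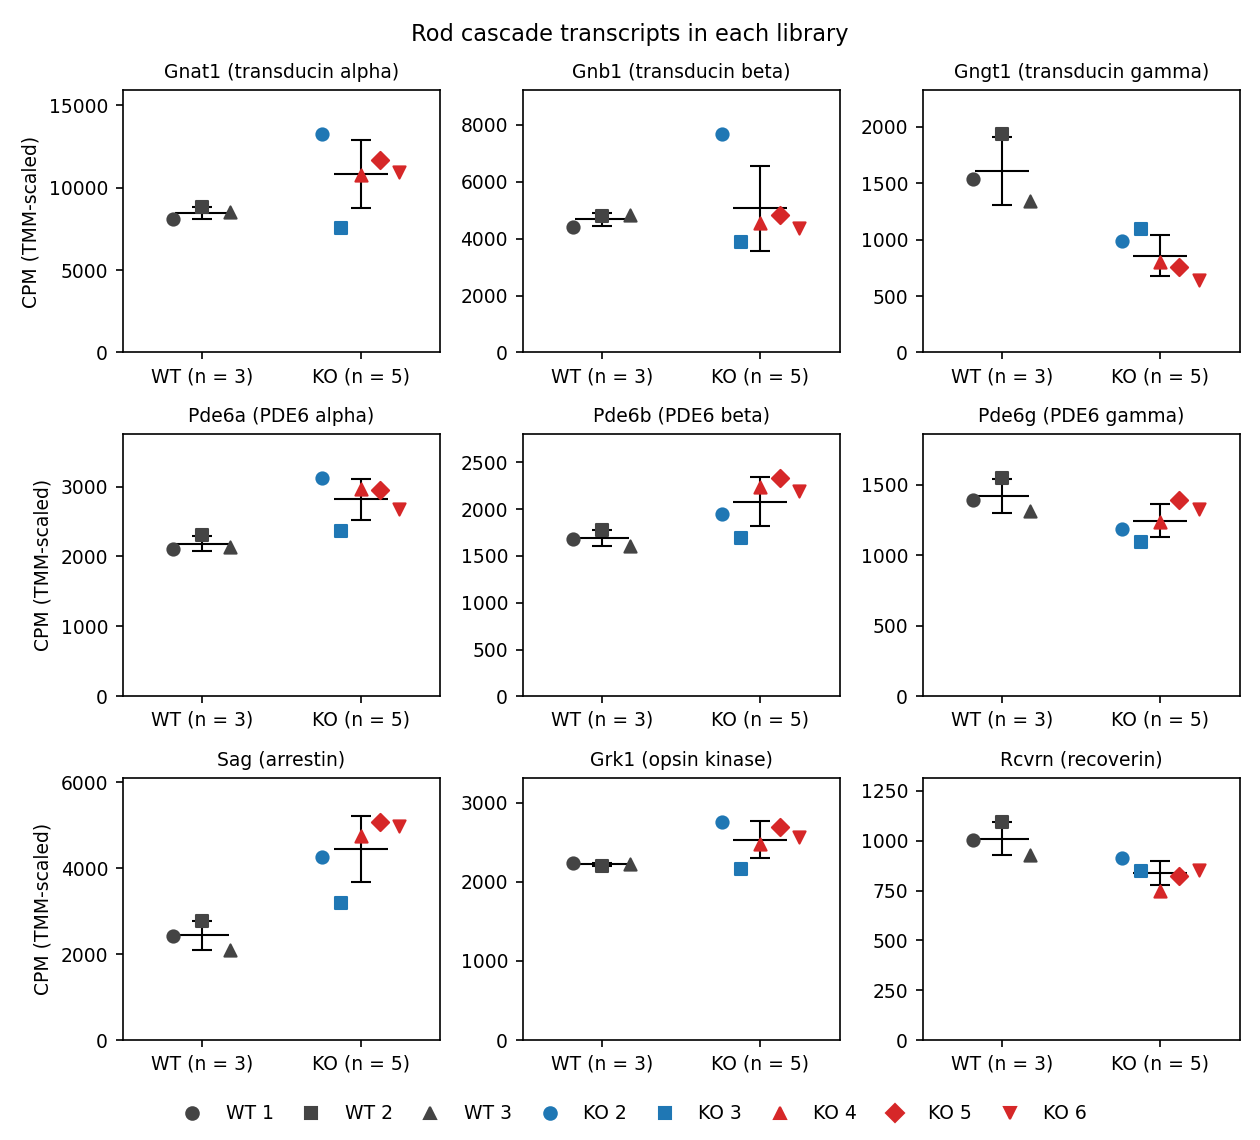
The level of each member in CPM is shown for the 3 WT and the 5 KO libraries, one mark per library, with bars for the mean and SD of each group. Sag is higher in every KO library than in any WT library and Gngt1 lower, while KO 2 and KO 3 lie at opposite ends for Gnat1 and Gnb1.

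In all, 5 members were called higher (Gnat1, Pde6a, Pde6b, Sag and Grk1) and 2 lower (Gngt1 and Rcvrn) in KO 4 to KO 6, beside the 22.3% and 20.5% of all genes given above. Over the 7 libraries without KO 3, 4 members were called higher and 1 lower, but calls over all genes rose as well, to 12.2% higher and 7.85% lower. No member was called in KO 2 and KO 3 by edgeR, where 1 was higher and 1 lower at an unadjusted p under 0.05, as were 10.1% and 8.82% of all genes. Summed, the members took 2.60% ± 0.083 of the counts in WT (SD, n = 3) and 3.04% ± 0.406 in KO (SD, n = 5). The KO values were 3.30%, 2.33%, 3.13%, 3.28% and 3.16% in KO 2 to KO 6, so KO 3 was below the WT libraries and the others above. KO 3 is also the library with 4.60% lens counts. With lens and mitochondrial counts left out of the total, KO 3 was at 2.58%, still below the WT libraries at 2.75% to 2.93%, and the group values were 2.82% ± 0.102 in WT and 3.20% ± 0.368 in KO.

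By transcript length the WT order of levels, as TPM from the annotated lengths, was Gnat1 (median 8636), Pde6g (3849), Sag (3516), Gnb1 (3501), Gngt1 (3241), Rcvrn (2399), Pde6b (1452), Pde6a (1145) and Grk1 (748). The WT ranges of Pde6g, Sag and Gnb1 overlapped one another, as did those of Gngt1 with Sag, Gnb1 and Pde6g, so their order is not fixed by these libraries. By coding length Gngt1 came after Gnat1 and its WT range overlapped that of Gnat1, so its place depends on the length used. In KO libraries the median of Sag was 7656 and that of Gngt1 1890.

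The cone counterparts of these genes, which do the same work in cones, give a comparison. Of 6, Pde6c was called higher (0.51, edgeR adjusted p = 0.0251) and Gnat2 (-0.47, edgeR adjusted p = 0.0318), Gngt2 (-0.60, edgeR adjusted p = 0.0254) and Pde6h (-0.74, edgeR adjusted p = 0.00478) lower over 8 libraries. Of all genes, 4.74% were called higher and 2.84% lower in that test. Gnb3 was at 0.79 (edgeR adjusted p = 0.0695) and Arr3, cone arrestin, at -0.72 (edgeR adjusted p = 0.103). In KO 2 and KO 3, Pde6h (edgeR adjusted p = 0.0164) and Arr3 (-1.33, edgeR adjusted p = 0.0293) were called lower. Of all genes, 0.624% were called higher and 0.267% lower in KO 2 and KO 3. In KO 4 to KO 6 all 6 were called, 2 higher and 4 lower, beside 22.3% and 20.5% of all genes. Gnb3 was at 1.09 there (edgeR adjusted p = 6.92e-07) and at 0.20 in KO 2 and KO 3 (edgeR adjusted p = 0.422), and Arr3 at -0.41 (edgeR adjusted p = 0.000137).

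Over 8 libraries, the Gnat2 call was lost without any 1 of the WT libraries or of KO 4, KO 5 and KO 6 (adjusted p 0.0664 to 0.164 in edgeR), at log2 fold changes of -0.52 to -0.38. The Gngt2 call was lost without any 1 WT library, KO 4 or KO 6 (0.0503 to 0.117), at -0.70 to -0.40, the smallest fall being that without WT 2. The Pde6c call was lost without any 1 WT library, KO 4 or KO 5 (0.0554 to 0.121), at 0.46 to 0.53. Pde6h was called without each of the 8 libraries in turn. Gngt2 and Pde6h overlap exons of genes on the opposite strand, and the strand setting of the counting is not given in the sources used here, so their counts are uncertain.

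Gnat1 over Gnat2 was 51.8 to 59.6 in WT and 78.0 to 110.5 in KO, a difference of 0.81 on the log2 scale. Sag over Arr3 was 14.2 to 19.0 in WT and 42.0 to 96.2 in KO, a difference of 1.66. Pde6g over Pde6h was 9.12 to 9.80 in WT and 12.4 to 17.5 in KO, a difference of 0.56. With GC offsets the fitted log2 fold changes of that pair lay closer together, at -0.37 for Pde6g and -0.65 for Pde6h, against -0.19 and -0.74 without. Each of these 3 ratios had exact permutation p = 0.0357 and adjusted p = 0.058, which did not pass 0.05. For those 3 pairs the rod transcript was higher relative to its cone counterpart in all 5 KO libraries than in any WT library. No ratio was formed for the catalytic phosphodiesterase subunits. Their log2 fold changes over 8 libraries were 0.51 for Pde6c of cones, against 0.37 for Pde6a and 0.30 for Pde6b of rods. For Gnb1 over Gnb3 (-0.66, exact permutation p = 0.179, adjusted p = 0.211) and Gngt1 over Gngt2 (-0.33, exact permutation p = 0.25, adjusted p = 0.271) the groups overlapped. With GC offsets the fitted log2 fold changes were -0.46 for Gngt1 and -0.70 for Gngt2, against -0.90 and -0.60 without. Gngt1 thus fell less than Gngt2 with the offsets and more without them.

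**Figure D4:**
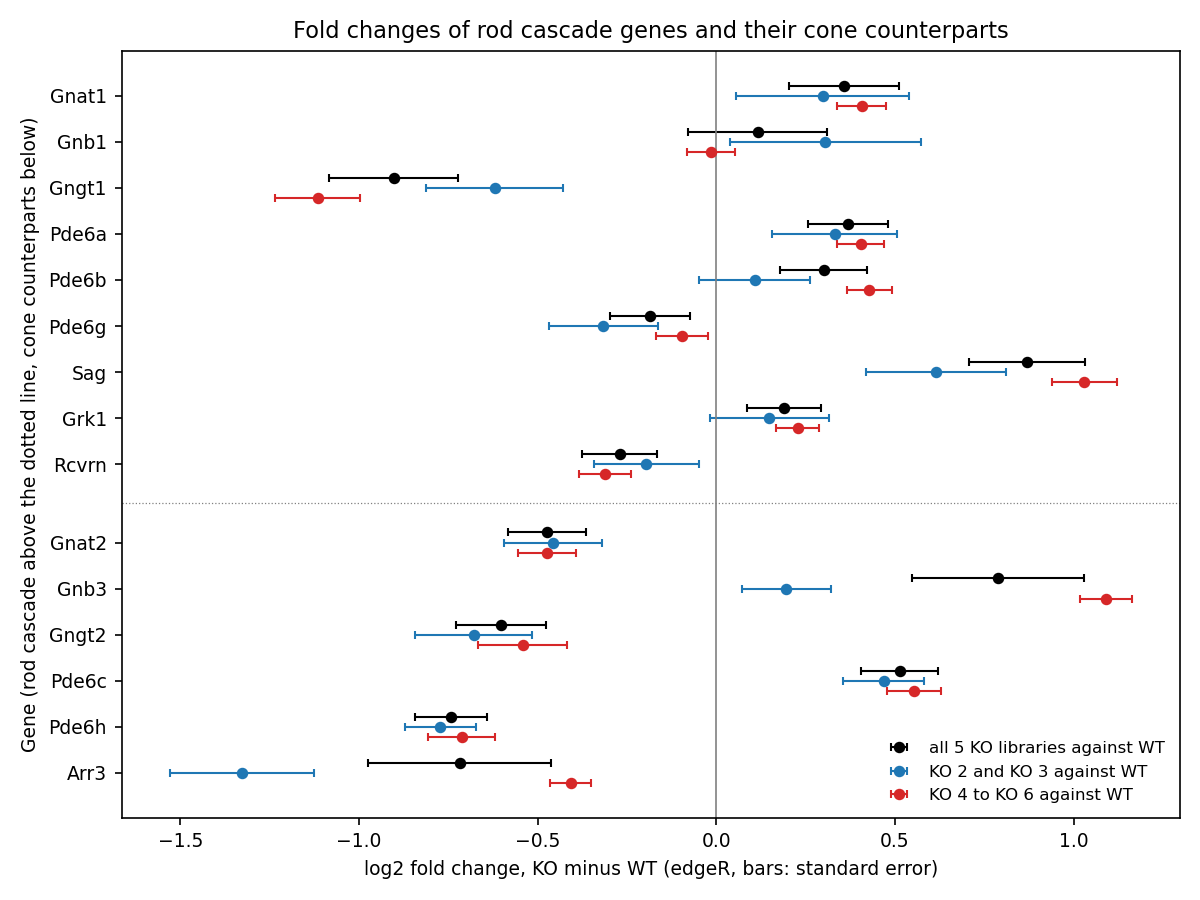
The log2 fold change (KO minus WT) of each rod member and, below the dotted line, each cone counterpart is shown for all 8 libraries, for KO 2 and KO 3 and for KO 4 to KO 6, with bars for the standard error from edgeR. Sag and Gngt1 lie on opposite sides of 0 in each comparison, and the bars are shortest in KO 4 to KO 6.

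Of a mixed list of 26 other photoreceptor genes (phototransduction and its feedback, protein transport, outer segment, retinoid handling, the transcription factors Nrl, Nr2e3 and Crx, and the synaptic gene Cabp4), 1 was called higher over 8 libraries and 0 lower in edgeR, against 6 and 3 at an unadjusted p under 0.05 (15.1% and 12.2% of all genes), with a median log2 fold change of 0.07. The one called was Slc24a4, a sodium-calcium-potassium exchanger known from cones rather than rods (0.67, SE 0.13, edgeR adjusted p = 0.0216), and its call was lost without WT 1, WT 2, KO 4 or KO 5 (adjusted p 0.0544 to 0.119 in edgeR), at 0.60 to 0.67. Slc24a1, the exchanger of rods, was at -0.01 (SE 0.17, edgeR adjusted p = 0.98). In KO 4 to KO 6, 11 were called higher and 6 lower, and in KO 2 and KO 3 0 were called, against 1 higher and 2 lower at an unadjusted p under 0.05. Among markers of other retinal cells, 1 of 8 rod bipolar genes was called lower (Gng13, -0.81, edgeR adjusted p = 0.0276), as was 1 of 8 amacrine and horizontal cell genes (Calb1, -0.49, edgeR adjusted p = 0.0454), which was at -0.06 with GC offsets (edgeR adjusted p = 0.799). The summed level of the rod bipolar list was 1252 to 1345 CPM in WT and 1182 to 1400 CPM in KO, and that of the amacrine and horizontal list 993 to 1035 CPM in WT and 973 to 1166 CPM in KO, overlapping in both. Of 8 Muller glia genes 2 were called higher (Sox9, 0.62, edgeR adjusted p = 0.0269, and Kcnj10, 0.54, edgeR adjusted p = 0.0344), and of 8 microglia genes 2 (Csf1r, 0.69, edgeR adjusted p = 0.0395, and Tmem119, 0.94, edgeR adjusted p = 0.0393). With GC offsets Csf1r and Tmem119 were no longer called (0.54, edgeR adjusted p = 0.055, and 0.72, edgeR adjusted p = 0.0927). Of 8 ganglion cell genes edgeR called 0 over 8 libraries (1 higher and 1 lower at an unadjusted p under 0.05), and of 8 pigment epithelium genes also 0 (2 higher and 0 lower). In KO 4 to KO 6, where 22.3% of all genes were called higher and 20.5% lower, the calls were 3 higher and 3 lower for rod bipolar, 1 and 1 for amacrine and horizontal, 3 and 2 for ganglion, 5 and 0 for Muller glia, 4 and 0 for microglia, and 3 and 1 for pigment epithelium genes, each of 8. In KO 2 and KO 3 edgeR called none of these genes, and at an unadjusted p under 0.05 it had 4 Muller glia, 4 microglia, 2 pigment epithelium and 1 amacrine or horizontal gene higher, and 2 rod bipolar, 1 ganglion and 1 amacrine or horizontal gene lower. The summed level of the Muller glia list was 4494 to 4680 CPM in WT and 4760 to 6859 CPM in KO, and that of the microglia list 52.8 to 57.8 CPM in WT and 61.5 to 82.1 CPM in KO, higher in every KO library. Beside these counts, 4.74% of all genes were called higher and 2.84% lower over 8 libraries. In KO 2 and KO 3, 10.1% of all genes were higher and 8.82% lower at an unadjusted p under 0.05 in edgeR. The part of these cells in the values of the members was not tested.

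The genes whose log2 CPM was most like that of Gngt1 over the 8 libraries, among 6384 genes, were Ifrd1, Cycs and Tomm7 (Pearson r 0.998, 0.993 and 0.993). For Sag they were Nell2, Mbd3 and Parp1 (0.990, 0.985 and 0.985). These libraries share the split between KO 4 to KO 6 and the others, and the values are given without a test.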

How the data were processed

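Retina RNA sequencing was compared between 3 WT and 5 KO libraries. The authors deposited a table of whole-number counts per gene for 26824 genes, the smallest row total being 16. Per the submitters' processing notes, Trim Galore, Salmon 1.10.2, DESeq2 and GRCm38 were named without roles. If Salmon made the values, they are rounded estimates. Strand and annotation are not given in the sources used here. Positions, lengths and GC content came from GENCODE M21 (GRCm38), matched for 22121 genes, with the longest principal transcript of each gene. At most 5.32% of a member's 31-mers occur in another gene.

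Counts were scaled by TMM and tested with edgeR 4.0.16 (R 4.3.3) quasi-likelihood tests after filterByExpr, with Benjamini-Hochberg adjustment over the 20167 genes left. Standard errors came from the fold change and F. Within-library log2 ratios of counts, with 0.5 added, were compared by two-sided exact permutation tests (scipy 1.17.1). The fit was tested on simulated counts of 8 libraries. Of 200 genes changed by a fold of 2 it called 115, and it called 6 unchanged genes. A gene that was not called may therefore still differ. Alternatives were DESeq2 1.42.0, limma 3.58.1 voom, other scalings and filters, GC and length offsets, libraries left out, and a replicate block. The smallest count of a member in a library was 14138. The p-values measure the spread between these libraries, whose pairs differed by more than sampling noise (chi-square per degree of freedom at least 5.85).

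Named genes were all members, the cone counterparts, called genes of the other lists, Kcnv2, and the 3 genes most correlated with each called member. Members and lists were chosen with earlier results of these data known. The crossed pairing and the GC offsets within the partial comparisons were chosen after seeing the data.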

Additional observations from a re-analysis of the deposited data

Results flagged for a closer look

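Among 23 values looked at in the 5 KO libraries (log2 CPM of each member, 13 ratios and the summed share), 3 had 1 library far from the rest, where the gap to the nearest library exceeded 0.71 of the whole range. Chance gives about 1.15 of 23. The log2 ratio of Gngt1 to Gnat1 was high in KO 3 (gap 0.733), at -2.78 against -3.74 to -4.09 in the other KO libraries. The log2 ratio of Sag to Arr3 was high in KO 2 (gap 0.915), at 6.59 against 5.39 to 5.49, and Arr3 stood at 44.2 CPM in KO 2 against 76.0 to 115.6 CPM. The summed share of the members was low in KO 3 (gap 0.824), at 2.33% against 3.13% to 3.30%, and lens genes took 4.60% of the counts of that library.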

How the results depend on the processing

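Over 8 libraries 1 member was called higher and 1 lower. The DESeq2 test called 3 higher, and limma voom called 5 higher and 2 lower. KO 4 to KO 6 against WT gave 5 and 2, and with GC offsets 5 and 3. KO 2 and KO 3 against WT gave 0 and 0, with GC offsets also 0 and 0 (edgeR), and 5 higher and 1 lower without KO 3, which leaves KO 2 alone and assumes that it varies like WT. With 1 or 2 libraries left out the counts ranged from 0 to 5 higher and 0 to 2 lower. For KO 2 and KO 3 against WT they ranged from 0 to 5 and 0 to 1. Over all genes, 956 higher and 573 lower became 566 and 787 with library size alone, where more were lower than higher, 1984 and 1082 with DESeq2, 4084 and 4164 with voom, 126 and 54 in KO 2 and KO 3, 115 and 58 there with GC offsets, 4379 and 4037 in KO 4 to KO 6, 2916 and 2718 there with GC offsets, and 82 to 4379 and 36 to 4037 with libraries left out.

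The numbers 2 and 3 occur in both groups, but no label ties them to shared animals or litters, and same-numbered libraries did not deviate together (correlations 0.00 and -0.24, and -0.19 within the 4 libraries). With a replicate block on WT 2, WT 3, KO 2 and KO 3, 0 members were called higher and 0 lower (edgeR; 1 and 1 at an unadjusted p under 0.05, beside 5.14% and 4.79% of all genes), and 38 and 14 of all genes. Without the block the 4 libraries gave 0 and 0 members and 12 and 2 genes. The crossed pairing gave 0 and 0 members and 340 and 187 genes.

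Gnb1 changed sign in KO 4 to KO 6 (-0.0158) and ranged from -0.123 to 0.284 with libraries left out. In KO 2 and KO 3 the difference was 0.0246 for Gnb1/Gnb3 and 0.0532 for Gngt1/Gngt2, and in KO 4 to KO 6 it was -0.0248 for Pde6a/Pde6b, each of opposite sign to the 8 libraries. With GC offsets the fitted fold changes of Gngt1 (-0.46) and Gngt2 (-0.70) also changed order. The cause was not tested. The other members kept their sign in every alternative to the 8-library fit, including those of KO 2 and KO 3 and of KO 4 to KO 6. Signs in fits of KO 2 and KO 3 with 1 library left out were not compared. In KO 3 itself, log2 of CPM over the WT mean was -0.17 for Gnat1, -0.04 for Grk1 and -0.0008 for Pde6b.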
